A study of Homo sapiens with 18 samples.

Results

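The genes described here are the phase II conjugation enzymes, taken as every gene whose symbol begins with GSTA, GSTK, GSTM, GSTO, GSTP, GSTT, GSTZ, MGST, UGT1A, UGT2A, UGT2B, SULT1, SULT2 or SULT4, with pseudogenes left out. A gene counted only where a probe set named it alone, and the probe set of highest mean over all arrays stood for it. This gave 33 of the 19775 genes measured, from 57 probe sets. They were 15 glutathione S-transferases of the soluble and kappa classes, 3 microsomal glutathione S-transferases, 7 UDP-glucuronosyltransferases and 8 sulfotransferases.

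RNA of 3 lines from hepatocellular carcinoma was measured on 18 expression arrays, 3 from cells of each line given an siRNA against ATAD2 and 3 from cells given a control siRNA. The 6 groups are SNU449, PLC and Hep3B, each with ATAD2 siRNA and with control siRNA; PLC stands for PLC/PRF/5. All cells grew in RPMI and received their siRNA in the same lipid reagent. The sample labels call the treated cells knockouts and the replicates biological, and the series design calls the treatment siRNA. Neither the time after transfection nor the siRNA sequences are given in the sources used here.

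Phase II enzymes join a polar group to a drug, hormone, bile acid or reactive lipid so that it can leave the cell. Glutathione S-transferases add glutathione, UDP-glucuronosyltransferases add glucuronic acid from its UDP-activated form, and sulfotransferases add sulfate from the donor PAPS. Hepatocytes carry out much of this work in the body, and hepatocellular carcinoma lines are known to keep it to different degrees. ATAD2, the target of the siRNA, is a chromatin-bound ATPase with a bromodomain.

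All values are log2 signals after quantile normalization over the 18 arrays, so that 1 unit is a doubling. The ATAD2 signal was 6.62 to 6.96 in SNU449, 7.05 to 7.17 in PLC and 4.70 to 5.65 in Hep3B with ATAD2 siRNA, against 9.14 to 9.32, 9.67 to 9.78 and 8.93 to 9.02 with control siRNA. It fell by 2.39, 2.62 and 3.80 log2 units in the 3 lines (adjusted p 6.15e-07, 3.04e-07 and 1.41e-10, limma). Line names are used as the labels give them, but the arrays labelled SNU449 had ALB at 13.7 to 13.8 and RB1 at 4.27 to 4.75, whereas those labelled Hep3B had ALB at 2.85 to 3.53, COL1A2 at 12.2 to 12.5 and RB1 at 9.15 to 9.51. Hep3B is known as a line without RB1 and SNU449 as a mesenchymal-like line, so these values run against both labels, and each direction between lines below holds for the labels as deposited. As a measure of RNA quality, the 5′ minus 3′ signal of the ACTB and GAPDH control probe sets was -1.15 and -1.09 on PLC ATAD2 siRNA replicates 1 and 3, against -0.45 on replicate 2 and -0.59 to -0.44 on the PLC control arrays. On Hep3B ATAD2 siRNA replicate 2 it was -0.42, against -0.79 to -0.65 on the other Hep3B arrays.

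Some of the conjugation enzymes differed widely between the lines. The differences called below, of 1 log2 unit or more, were each wider than any member's change after ATAD2 siRNA. On the control arrays, SNU449-labelled cells had the highest signals of UGT2B4, UGT2A3, UGT2B15, UGT2B28, SULT1A1, SULT1C2 and SULT2A1, PLC cells of GSTP1 and GSTA4, and Hep3B-labelled cells of SULT1C4 and SULT2B1. A call between lines needed an adjusted p under 0.05 by limma and a difference of 1 log2 unit or more. For SNU449 against Hep3B, 13 of 33 members were called, 11 higher and 2 lower in SNU449; among all genes 19.7% were called, 9.24% higher and 10.5% lower. Between PLC and Hep3B, 9 members were called, 6 higher and 3 lower in PLC, against 18.4% of all genes, 9.58% higher and 8.83% lower. Between SNU449 and PLC, 13 members were called, 10 higher and 3 lower in SNU449, against 19.2% of all genes, 8.63% higher and 10.5% lower. The median absolute difference of the members was 0.57, 0.34 and 0.69 log2 units in these comparisons, beside 0.37, 0.41 and 0.43 for all genes.

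**Figure D1:**
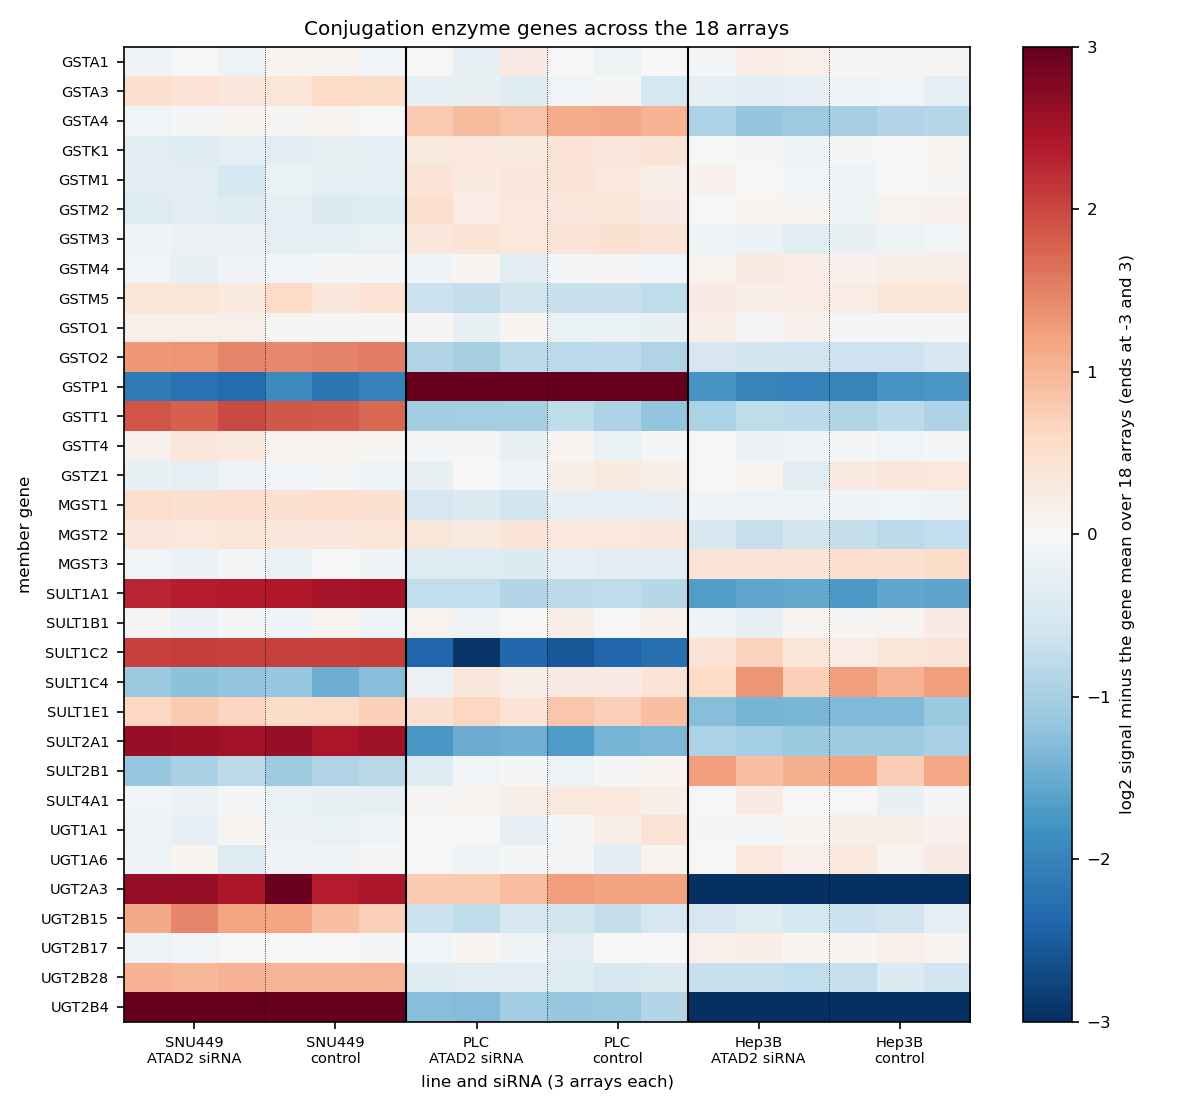
Heat map of the 33 conjugation enzyme genes (rows) on the 18 arrays (columns, by line and siRNA), coloured by log2 signal minus the gene's mean over all arrays, with the colour scale ending at -3 and 3. UGT2B4, UGT2A3, GSTP1, SULT1A1, SULT1C2 and SULT2A1 separate the lines, and the ATAD2 siRNA and control columns of a line look alike.

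A level set between lines depends on the scaling, because the deposited values looked as if each line had been normalized by itself. With the deposited values, the median of all genes lay 0.15 higher in SNU449 than in Hep3B, 0.62 lower in PLC than in Hep3B (a difference of -0.62), and 0.76 higher in SNU449 than in PLC. The calls then became 12 higher and 2 lower in SNU449 against Hep3B, 6 higher and 12 lower in PLC against Hep3B, and 17 higher and 2 lower in SNU449 against PLC, while 19%, 43% and 47.6% of all genes were called. With each array centred on its median, the differences of the median of all genes were -0.06, 0.62 and -0.69, and the calls were 10 higher and 2 lower, 14 higher and 1 lower, and 7 higher and 12 lower, beside 18.3%, 41.6% and 43.4% of all genes. The larger counts that involve PLC thus came with a rise in calls over all genes. Among the called differences, that of GSTO2 between SNU449 and Hep3B was the only one to change sign under an alternative run. Under centring, the differences of UGT2A3 and UGT2B28 between SNU449 and PLC shrank to 0.30 and 0.37, and with the deposited values that of SULT1C4 was -0.74. The calls of GSTM5 and SULT2B1 between PLC and Hep3B lay close to the limit of 1 unit. That of GSTM5 ended without Hep3B control replicate 2 (-0.997) or 3 (-0.991) or PLC control replicate 3 (-0.983), and that of SULT2B1 without Hep3B control replicate 1 (-0.995). Markers of hepatocytes also differed between the lines. The median signal of the 8 fixed hepatocyte markers was 12.3 on the SNU449, 10.9 to 11.0 on the PLC and 4.88 to 5.11 on the Hep3B control arrays. FGB, 1 of the 8, ran the other way, with control means of 6.88 in SNU449, 11.53 in PLC and 11.47 in Hep3B. The part of these markers in the differences between lines was not tested.

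Among the UDP-glucuronosyltransferases, UGT2B4, which conjugates bile acids, showed the widest difference. Its control signal was 11.61, 11.50 and 11.54 in SNU449, 5.15, 5.18 and 5.40 in PLC, and 2.05, 2.08 and 2.20 in Hep3B. The 3 lines did not overlap, and the Hep3B values lay under the 10th percentile of all probe set signals, at the dim end of the arrays. The difference was 9.44 ± 0.08 (SE) between SNU449 and Hep3B (adjusted p = 1.44e-21, limma) and 3.13 ± 0.08 between PLC and Hep3B (adjusted p = 1.78e-15). UGT2A3, an enzyme of the same superfamily known from gut and liver, had 8.79, 8.20 and 8.26 in SNU449, 7.10, 7.05 and 7.04 in PLC, and 2.42, 2.21 and 2.34 in Hep3B. It too fell into 3 levels without overlap, 6.09 ± 0.12 higher in SNU449 than in Hep3B (adjusted p = 1.6e-17) and 4.74 ± 0.12 higher in PLC than in Hep3B (adjusted p = 6.13e-16).

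UGT2B15, which conjugates androgens, and UGT2B28 were called higher in SNU449 against both other lines. UGT2B15 averaged 6.22 ± 0.24 in SNU449, 4.69 ± 0.10 in PLC and 4.77 ± 0.18 in Hep3B (SD, n = 3 each). Its second probe set differed by 1.15 between SNU449 and Hep3B and by -1.16 between PLC and Hep3B. The dimmest one differed by 0.03 and -0.14. With the mean of its probe sets, SNU449 was 0.88 above Hep3B, short of the limit of 1 log2 unit. UGT2B28 averaged 8.56 ± 0.01 in SNU449, 7.11 ± 0.08 in PLC and 6.97 ± 0.15 in Hep3B. The UGT2B genes are close in sequence, and how far their probe sets share transcripts was not tested. UGT1A1, the bilirubin enzyme, UGT1A6, which conjugates small phenols, and UGT2B17, an androgen enzyme, averaged 2.29 to 4.09 on the control arrays of every line, at the dim end of the arrays. UGT1A1 and UGT1A6 rest on 1 probe set each. The genes of the UGT1A locus share their last exons. The 7 further probe sets that name several UGT1A genes were not counted among the members. The brighter of these 7 averaged 6.06 to 6.94 on the PLC control arrays, 4.39 to 6.44 in SNU449 and 4.43 to 6.33 in Hep3B. Each of them was highest in PLC, by up to 1.63 log2 units over Hep3B (adjusted p = 5.51e-11, limma over all probe sets). The dimmest averaged 2.84 and 3.08 in PLC. Which UGT1A gene the shared probe sets read was not tested.

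GSTP1, the pi-class glutathione S-transferase found in bile duct cells and many tumours but hardly in normal hepatocytes, stood out in PLC. Its control signal was 12.23, 12.34 and 12.34 in PLC, against 6.32, 6.07 and 6.19 in SNU449 and 6.24, 6.46 and 6.49 in Hep3B. No PLC array came near those of the other lines, and the SNU449 and Hep3B arrays overlapped. The difference was 5.91 ± 0.09 log2 units between PLC and Hep3B (adjusted p = 1.1e-18) and -6.11 ± 0.09 between SNU449 and PLC (adjusted p = 1.05e-18). GSTA4, an alpha-class enzyme that removes the lipid peroxidation product 4-hydroxynonenal, averaged 8.69 ± 0.04 in SNU449, 9.74 ± 0.05 in PLC and 7.73 ± 0.08 in Hep3B (SD, n = 3 each). With its second probe set in place of the brightest, the GSTA4 difference between SNU449 and PLC shrank from -1.05 to -0.06 log2 units and was no longer called.

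GSTT1, a theta-class transferase that acts on small halogenated compounds, was bright in SNU449 alone. It had 6.93, 6.90 and 6.79 in SNU449, 4.30, 4.14 and 3.90 in PLC, and 4.16, 4.28 and 4.16 in Hep3B. PLC and Hep3B overlapped, and SNU449 lay 2.67 ± 0.09 above Hep3B (adjusted p = 2.57e-14), which both of its probe sets showed (1.64 with the second). GSTO2, an omega-class enzyme that reduces dehydroascorbate, had 7.05, 7.12 and 7.15 in SNU449, 4.80, 4.84 and 4.72 in PLC, and 5.00, 5.00 and 5.14 in Hep3B. SNU449 stood 2.06 ± 0.07 above Hep3B by this probe set (adjusted p = 2.16e-14), but the difference was -0.13 by the other one, so that the probe sets of GSTO2 disagreed.

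Of the mu class, which lies in 1 cluster on chromosome 1 and whose probe sets may pick up more than 1 of these similar transcripts, GSTM5 was called lower in PLC. It averaged 6.19 ± 0.14 in SNU449, 5.04 ± 0.06 in PLC and 6.06 ± 0.08 in Hep3B. By the probe sets used, GSTM1, GSTM2, GSTM3 and GSTM4 differed by less than 1 log2 unit between every pair of lines. The same held for GSTA1, GSTA3, GSTK1, GSTO1, GSTT4 and GSTZ1. The other GSTM4 probe set, which was dimmer, differed by -1.26 between SNU449 and PLC and by 1.02 between PLC and Hep3B. Of the microsomal enzymes, MGST2, which can make leukotriene C4, averaged 9.78 ± 0.01 in SNU449, 9.75 ± 0.01 in PLC and 8.68 ± 0.05 in Hep3B, and was called against Hep3B in both comparisons. MGST1 and MGST3 differed by less than 1 log2 unit by the probe sets used. A dimmer MGST1 probe set differed by 1.75 between SNU449 and Hep3B and by 1.08 between SNU449 and PLC.

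Of the 8 sulfotransferases, 6 (75%) were called in SNU449 set against Hep3B, 3 (37.5%) in PLC set against Hep3B, and 4 (50%) in SNU449 set against PLC. Of all genes, 19.7%, 18.4% and 19.2% were called. SULT1A1, the phenol sulfotransferase of liver and platelets, had 10.26, 10.33 and 10.37 in SNU449, 7.09, 7.11 and 7.02 in PLC, and 6.14, 6.31 and 6.29 in Hep3B. The 3 lines did not overlap, and SNU449 was 4.07 ± 0.06 above Hep3B (adjusted p = 6.86e-19). A second SULT1A1 probe set gave a difference of 4.35, while the last of its probe sets read 6.56, 6.36 and 6.39 in SNU449, PLC and Hep3B. A probe set shared by the near-identical SULT1A3 and SULT1A4 read 10.19, 6.54 and 6.11, so which SULT1A gene carried the signal is uncertain.

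SULT2A1, which sulfates the adrenal steroid DHEA and bile acids, had 8.52, 8.35 and 8.45 in SNU449, 4.22, 4.52 and 4.57 in PLC, and 4.85, 4.84 and 4.93 in Hep3B. SNU449 was 3.56 ± 0.09 above Hep3B (adjusted p = 9.49e-16). SULT1C2, an enzyme of the same family, averaged 8.99 ± 0.01 in SNU449 (SD, n = 3), with 4.39, 4.57 and 4.68 in PLC and 7.16, 7.29 and 7.32 in Hep3B. By this probe set it thus stood at 3 separate levels, 1.73 ± 0.12 higher in SNU449 than in Hep3B (adjusted p = 9.66e-10, limma) and 2.71 lower in PLC than in Hep3B (-2.71 ± 0.12, adjusted p = 2.41e-12). Between PLC and Hep3B, the next brightest of its 4 probe sets read -2.74, but the dimmer ones read -0.66 and 0.21. All 4 were higher in SNU449 than in Hep3B, by 1.16 to 1.84. SULT1C4, a related enzyme known for its expression before birth, ran the other way, with 5.58, 5.25 and 5.44 in SNU449, 6.96, 6.98 and 7.13 in PLC, and 7.99, 7.76 and 7.97 in Hep3B. The lines again did not overlap, with a difference of -2.48 ± 0.16 between SNU449 and Hep3B (adjusted p = 2.13e-10).

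SULT1E1, the estrogen sulfotransferase, was dim in all lines, with 4.63, 4.67 and 4.79 in SNU449, 4.92, 4.79 and 4.99 in PLC, and 2.75, 2.76 and 2.97 in Hep3B. The Hep3B arrays lay apart from both other lines, 1.87 ± 0.08 below SNU449 (adjusted p = 1.03e-12) and 2.07 ± 0.08 below PLC (adjusted p = 2.97e-13). SULT2B1, which sulfates cholesterol in skin, averaged 4.39 ± 0.12 in SNU449, 5.28 ± 0.11 in PLC and 6.36 ± 0.25 in Hep3B and was called lower than Hep3B in both other lines. SULT1B1, a thyroid hormone sulfotransferase, and SULT4A1, a brain protein with no settled substrate, were not called in any pair of lines.

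**Figure D2:**
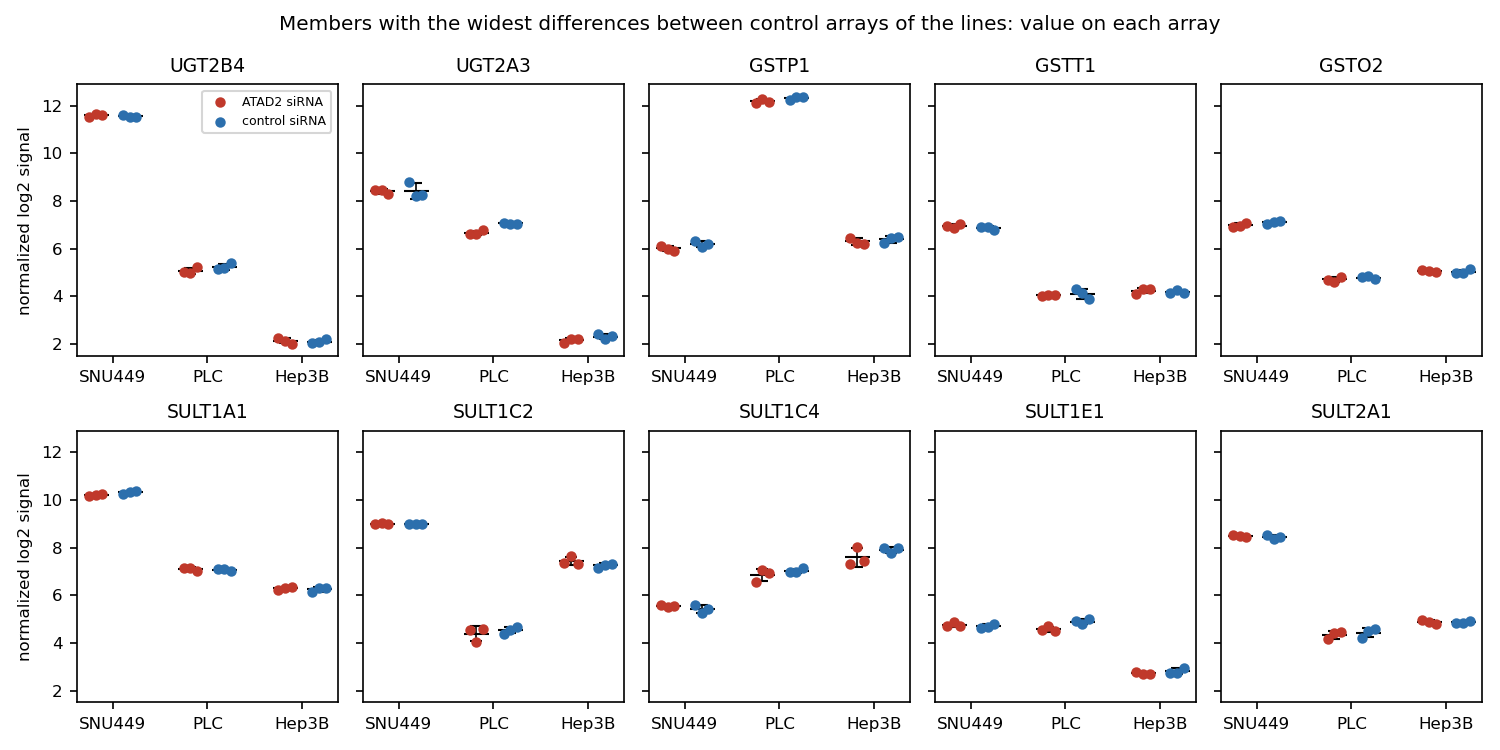
Normalized log2 signal of the 10 members with the widest differences between control arrays, by line; red points are the 3 ATAD2 siRNA arrays, blue points the 3 control arrays, and bars the mean with SD. GSTP1 is near 12 in PLC alone, UGT2B4 spans 2.1 to 11.6 over the lines, and red and blue points of a line lie close together.

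Promoter sequences were taken from RefSeq (GRCh38.p14, 250 bases before to 50 after an annotated start) for 26 of the 33 members, in 30 windows; UGT2B4, UGT2B17, UGT2B28, GSTT1, SULT1A1, SULT4A1 and MGST2 had no entry. The windows of 2 members with clear line differences are shown, since they contrast a promoter rich in CG pairs with one that has none. GSTP1 lies on chr11:67583562-67583861 (plus strand) and UGT2A3 on chr4:68951755-68952054 (minus strand). Capitals mark matches to the motifs described after the sequences.
GSTP1: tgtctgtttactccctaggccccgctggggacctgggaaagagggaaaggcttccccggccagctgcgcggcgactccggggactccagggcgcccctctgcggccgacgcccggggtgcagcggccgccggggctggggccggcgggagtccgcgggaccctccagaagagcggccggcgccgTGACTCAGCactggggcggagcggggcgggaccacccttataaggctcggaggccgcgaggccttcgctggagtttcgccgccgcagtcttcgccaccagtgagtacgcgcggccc
UGT2A3: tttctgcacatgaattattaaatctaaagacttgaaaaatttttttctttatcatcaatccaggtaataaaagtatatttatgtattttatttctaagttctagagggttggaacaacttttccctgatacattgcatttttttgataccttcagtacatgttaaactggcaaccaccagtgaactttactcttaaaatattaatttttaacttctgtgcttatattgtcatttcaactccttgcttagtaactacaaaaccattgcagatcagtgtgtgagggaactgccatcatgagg
The GSTP1 window held 36 CG pairs, more than 87.3% of all 35116 promoter windows, and the UGT2A3 window held 0, against a median of 14 over all windows and 9.5 over the members' windows. Each motif was searched on both strands: the AP-1 motif TGACTCA, the antioxidant response element core TGACNNNGC, the HNF1 motif GTTAAT and the xenobiotic response element core GCGTG. The capitals in GSTP1, at -66 from the start, match AP-1 and the antioxidant response element core at once. AP-1 was found in 4.95% of all windows and in 1 member window, that of GSTP1. The antioxidant response element core was found in 13.3% of all windows and in 8 of the 30 member windows, those of GSTA4, GSTM1, GSTM5, GSTO1, GSTP1, MGST1, SULT1C2 and UGT1A6. These are matches of letters and say nothing of binding.

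The next comparison asks what lowering ATAD2 did to these genes in each line. The changes were small. No member changed by as much as 0.5 log2 units in any line, and 4 genes, GSTZ1, MGST1, MGST2 and SULT1E1, passed the threshold of adjusted p under 0.05 somewhere. The median width to either side of the 95% intervals was 0.17 log2 units and the widest was 0.33. These intervals are not adjusted for the number of genes tested. Changes of this size or larger may thus have gone uncalled, as that of UGT2A3 in PLC did (-0.39, adjusted p = 0.0676, limma).

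**Figure D3:**
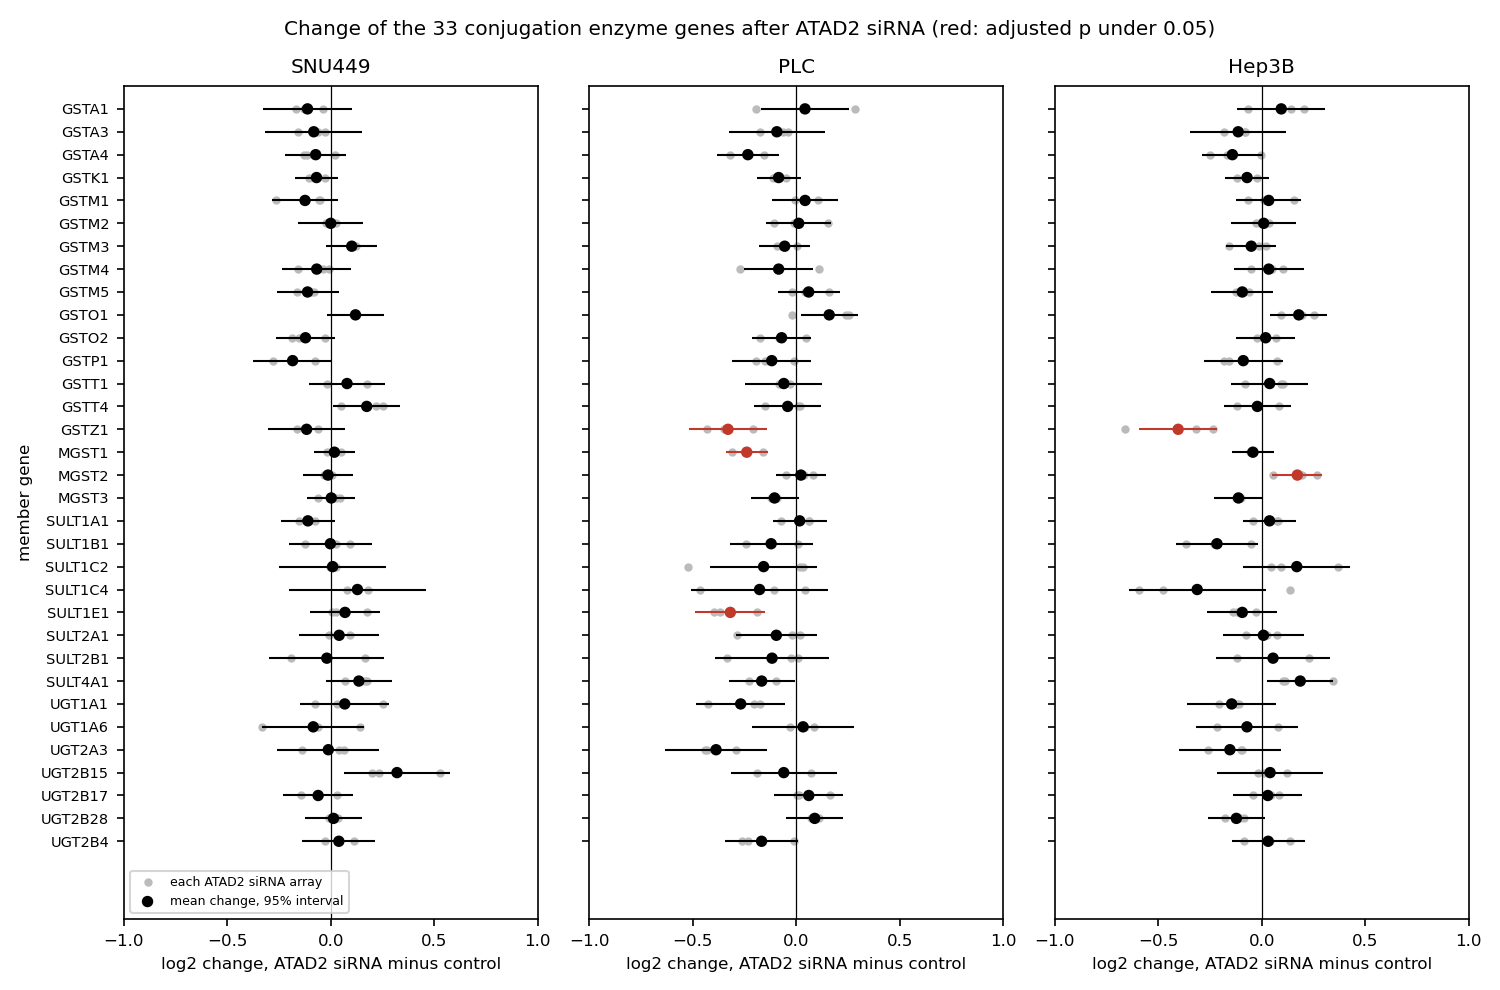
Log2 change of each of the 33 members, ATAD2 siRNA minus control, in SNU449, PLC and Hep3B; grey points are single ATAD2 siRNA arrays minus the mean of the controls, dark points the mean change with its 95% interval, and red marks adjusted p under 0.05. Red appears for GSTZ1 in PLC and Hep3B, MGST1 and SULT1E1 in PLC, and MGST2 in Hep3B.

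In Hep3B, 2 of 33 members passed (6.06%), against 16.4% of all genes, of which 8.68% rose and 7.74% fell. GSTZ1 fell and MGST2 rose. GSTZ1 encodes the zeta-class transferase, also called maleylacetoacetate isomerase, of tyrosine breakdown, on chromosome 14. It had 6.86, 6.94 and 6.52 with ATAD2 siRNA, against 7.14, 7.20 and 7.19 with control siRNA. All 3 ATAD2 siRNA arrays lay under all control arrays, replicate 3 furthest. The change was -0.40 ± 0.09 (SE), 1.32-fold lower (adjusted p = 0.00412, limma), and it stayed past the threshold when any 1 of the 18 arrays was left out. With arrays centred on their medians it was -0.27 (adjusted p = 0.0743).

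MGST2 had 8.95, 8.74 and 8.87 in Hep3B with ATAD2 siRNA, against 8.72, 8.62 and 8.70 with control siRNA. All ATAD2 siRNA arrays lay above all control arrays, though replicate 2 only just. The change was 0.17 ± 0.06 (adjusted p = 0.0494). This call was lost on leaving out any of 16 of the 18 arrays (adjusted p 0.0507 to 0.193) and kept without Hep3B ATAD2 siRNA replicate 2 or PLC ATAD2 siRNA replicate 2. Without Hep3B ATAD2 siRNA replicate 2, the array that stood apart in 5′ minus 3′ signal, 4 members passed, the others being GSTO1 (0.22, adjusted p = 0.0398) and SULT1C4 (-0.53, adjusted p = 0.00898). With the 5′ minus 3′ signal as a covariate the same 4 genes passed, GSTO1 with 0.21 (adjusted p = 0.00235) and SULT1C4 with -0.37 (adjusted p = 0.0444).

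SULT1C4 itself had 7.31, 8.04 and 7.43 with ATAD2 siRNA, against 7.99, 7.76 and 7.97 with control siRNA, so that replicate 2 lay above the control arrays and the other replicates below them. None of the 7 UDP-glucuronosyltransferases passed in Hep3B by limma, and none had an unadjusted p under 0.05, with changes between -0.15 and 0.04. None of the 8 sulfotransferases passed either, and 2 had an unadjusted p under 0.05. Over all members, 5 of 33 had one, beside 27.4% of all genes. Over all 33 members, 17 changes were below 0 and 16 above, with a median of -0.02, as for all genes (-0.02). The split of the calls depended on the scaling: 2 rose and 1 fell with the deposited values, 2 rose and 0 fell with arrays centred on their medians, and 0 rose and 1 fell with quantile normalization within each line.

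In PLC, 3 members passed, all lower with ATAD2 siRNA (9.09%), against 4.57% of all genes, of which 2.34% rose and 2.24% fell. They were GSTZ1, MGST1 and SULT1E1. GSTZ1 had 6.65, 6.87 and 6.73 with ATAD2 siRNA, against 7.04, 7.16 and 7.04 with control siRNA. The groups did not overlap, and the change was -0.33 ± 0.09 (adjusted p = 0.0447). The call ended on leaving out any of 15 arrays (adjusted p 0.0507 to 0.156) and held without Hep3B ATAD2 siRNA replicate 2 or 3 or PLC ATAD2 siRNA replicate 2.

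MGST1 encodes the microsomal transferase 1, an abundant glutathione transferase and peroxidase of endoplasmic reticulum and outer mitochondrial membranes in liver, on chromosome 12. It had 11.29, 11.37 and 11.22 in PLC with ATAD2 siRNA, against 11.54, 11.53 and 11.54 with control siRNA. The control arrays agreed closely and every ATAD2 siRNA array lay below them, with replicate 2 nearest. The change was -0.24 ± 0.05, 1.18-fold lower (adjusted p = 0.0124), and leaving out any 1 array kept the call. The gene has 5 probe sets. With each probe set tested by itself, the 3 bright ones fell (-0.24, -0.34 and -0.40, adjusted p 0.0105 to 0.0269), and the 2 dim ones did not pass (-0.11 and 0.16).

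SULT1E1, on chromosome 4, had 4.53, 4.71 and 4.50 in PLC with ATAD2 siRNA, against 4.92, 4.79 and 4.99 with control siRNA. The groups did not overlap, but replicate 2 with ATAD2 siRNA came close to the lowest control array. The change was -0.32 ± 0.08, 1.25-fold lower (adjusted p = 0.0359). The call ended without PLC control replicate 1 (adjusted p = 0.0932) or 3 (0.115) and without PLC ATAD2 siRNA replicate 1 (0.108) or 3 (0.106). A second SULT1E1 probe set changed by -0.06.

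The promoter windows of the 3 genes that passed in PLC are shown to see whether they share sequence features. GSTZ1 lies on chr14:77320786-77321085 (plus strand), the window of MGST1 with both HNF1 motifs nearest its start on chr12:16347395-16347694 (plus strand), and SULT1E1 on chr4:69860096-69860395 (minus strand). Capitals mark matches to the 4 motifs named above.
GSTZ1: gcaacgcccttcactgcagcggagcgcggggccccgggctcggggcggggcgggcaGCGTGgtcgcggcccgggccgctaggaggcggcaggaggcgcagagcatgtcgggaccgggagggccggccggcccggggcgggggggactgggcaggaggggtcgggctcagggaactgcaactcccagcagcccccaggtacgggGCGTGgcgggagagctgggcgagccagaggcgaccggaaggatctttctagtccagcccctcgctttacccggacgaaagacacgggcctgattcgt
MGST1: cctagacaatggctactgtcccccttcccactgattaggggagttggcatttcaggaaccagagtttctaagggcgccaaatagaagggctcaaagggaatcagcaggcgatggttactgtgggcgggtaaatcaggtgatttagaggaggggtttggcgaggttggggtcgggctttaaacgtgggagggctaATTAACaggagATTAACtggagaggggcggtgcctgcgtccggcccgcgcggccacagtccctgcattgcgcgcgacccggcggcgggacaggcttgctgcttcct
SULT1E1: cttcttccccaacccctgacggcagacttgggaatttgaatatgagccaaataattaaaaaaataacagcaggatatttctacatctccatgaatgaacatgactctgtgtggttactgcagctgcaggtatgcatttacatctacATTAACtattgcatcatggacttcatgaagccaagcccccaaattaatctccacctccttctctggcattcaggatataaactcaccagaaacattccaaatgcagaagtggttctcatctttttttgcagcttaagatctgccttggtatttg
The windows had little in common. GSTZ1 held 33 CG pairs and 2 matches to the xenobiotic response element core, which 36.5% of all windows contain. MGST1 held 18 CG pairs and matches to the reverse strand of the HNF1 motif at -56 and -45 from its start, and SULT1E1 held 1 CG pair and 1 such match at -104. This motif was found in 6.88% of all windows and in 6 member windows, of GSTA1, MGST1, SULT1E1, UGT1A1 and UGT1A6.

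GSTZ1, MGST1 and SULT1E1 each lay closest to the controls on replicate 2, the ATAD2 siRNA array whose 5′ minus 3′ signal was like that of the controls. Against the control mean, replicates 1, 2 and 3 of MGST1 differed by -0.25, -0.16 and -0.31. Without replicates 1 and 3, the changes were -0.21 for GSTZ1 (adjusted p = 0.498), -0.16 for MGST1 (adjusted p = 0.182) and -0.19 for SULT1E1 (adjusted p = 0.478), each resting on 1 array that is assumed to vary like the other groups. In that fit 1 member passed, SULT1C2 with -0.52 (adjusted p = 0.0201), for which replicate 2 read 4.02, while replicates 1 and 3 read 4.56 and 4.58. With the 5′ minus 3′ signal as a covariate, 0 of 33 members passed in PLC by limma, beside 1.93% of all genes, and 6 members had an unadjusted p under 0.05, beside 13.9% of all genes. The changes were then -0.22 ± 0.10 for GSTZ1 (adjusted p = 0.364), -0.19 ± 0.05 for MGST1 (adjusted p = 0.0849) and -0.25 ± 0.10 for SULT1E1 (adjusted p = 0.246). Each kept its direction, was smaller than without the covariate and had a larger standard error. In PLC the low 5′ minus 3′ signal was found only with ATAD2 siRNA, on replicates 1 and 3. This fit thus cannot fully tell RNA quality and ATAD2 siRNA apart.

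**Figure D4:**
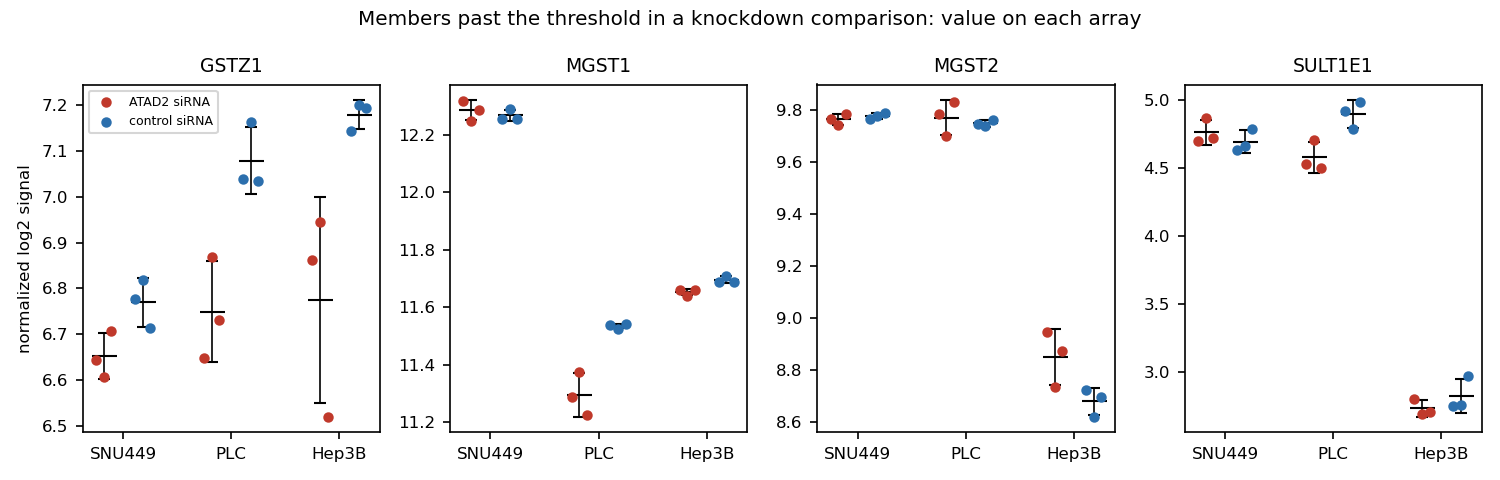
Normalized log2 signal of GSTZ1, MGST1, MGST2 and SULT1E1 on every array, by line, with ATAD2 siRNA in red on the left and control siRNA in blue on the right of each line; bars are the mean with SD, and each panel has its own vertical axis, which does not start at 0. GSTZ1 lies lower with ATAD2 siRNA in PLC and Hep3B without overlap, MGST1 and SULT1E1 do so in PLC, and MGST2 lies higher in Hep3B.

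Beyond the calls, 23 of 33 members were below 0 in PLC and 10 above, with a median change of -0.09 beside 0.01 for all genes; 8 members had an unadjusted p under 0.05, beside 21% of all genes. UGT2A3 had 6.62, 6.63 and 6.77 with ATAD2 siRNA, against 7.10, 7.05 and 7.04 with control siRNA. These groups did not overlap, and the change of -0.39 ± 0.12 did not pass (adjusted p = 0.0676); it passed with the deposited values (-0.51, adjusted p = 0.0129), with quantile normalization within each line (-0.49, adjusted p = 0.0183) and with centred arrays (-0.54, adjusted p = 0.00969). GSTA4 read -0.23 ± 0.07 (adjusted p = 0.0667) and passed under the same 3 scalings (adjusted p 0.0216 to 0.0376), but its second probe set read -0.04. Without PLC ATAD2 siRNA replicate 2, 5 members passed in PLC, the additional ones being GSTA4 (-0.27, adjusted p = 0.0225) and GSTO1 (0.25, adjusted p = 0.00396). That fit rests on replicates 1 and 3, which stood apart in 5′ minus 3′ signal. The other GSTO1 probe set, about as bright, went the other way in PLC. With all arrays it averaged 10.76 with ATAD2 siRNA and 10.89 with control siRNA (-0.14). The 7 shared UGT1A probe sets were also all below 0 in PLC, between -0.43 and -0.14, with a smallest adjusted p of 0.0566 over all probe sets; they overlap in sequence and are not separate observations. Of the 4 probe sets shared by SULT1A3 and SULT1A4, 1 fell in PLC (-0.34, adjusted p = 0.0442), and the same one rose in Hep3B (0.33, adjusted p = 0.0244). Of the 8 hepatocyte markers, 4 fell in PLC, and their median was 10.1 to 10.3 with ATAD2 siRNA, against 10.9 to 11.0 with control siRNA. The part of these markers in the members' values was not tested. In bulk RNA, fewer cells of a kind and less RNA per cell cannot be told apart.

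In SNU449, 0 of 33 members passed by limma, against 0.258% of all genes (0.147% rose and 0.111% fell). At an unadjusted p under 0.05 there were 2 members, beside 10.3% of all genes. Changes ran from -0.18 to 0.32, with 18 members below 0 and 15 above and a median of -0.0019, beside -0.02 for all genes. The largest was that of UGT2B15, which averaged 6.54 ± 0.18 with ATAD2 siRNA and 6.22 ± 0.24 with control siRNA (SD, n = 3 each), with overlapping arrays and a change of 0.32 ± 0.12 (adjusted p = 0.334). GSTZ1 had 6.64, 6.61 and 6.71 with ATAD2 siRNA, against 6.78, 6.82 and 6.71 with control siRNA. Its arrays did not overlap in SNU449 either, though replicate 3 of each group read 6.71, and the change of -0.12 ± 0.09 did not pass (adjusted p = 0.762).

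Whether the change of a member differed between lines was tested by an F test over the lines. MGST1 was the only member of 33 to pass (adjusted p = 0.0447), against 9.18% of all genes. Its change was 0.02 in SNU449, -0.24 in PLC and -0.04 in Hep3B. The pairwise differences in change were 0.26 ± 0.07 between SNU449 and PLC (adjusted p = 0.106), -0.20 ± 0.07 between PLC and Hep3B (adjusted p = 0.0775) and 0.06 ± 0.07 between SNU449 and Hep3B (adjusted p = 0.801). The F test's call was lost on leaving out any of 16 arrays (adjusted p 0.0553 to 0.109), kept without Hep3B or PLC ATAD2 siRNA replicate 2, and lost without PLC ATAD2 siRNA replicates 1 and 3 together (adjusted p = 0.262). For GSTZ1, which fell in PLC and Hep3B, the difference between lines had an adjusted p of 0.273, for MGST2 of 0.257 and for SULT1E1 of 0.0867. SULT4A1 did not pass the F test (adjusted p = 0.0719), but its pairwise difference between PLC and Hep3B did (-0.35 ± 0.11, adjusted p = 0.0462, limma). Its change was 0.19 in Hep3B and -0.17 in PLC, while its second probe set changed by -0.02 and 0.16.

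Conjugation also needs cofactors, transporters and other enzymes, and 47 genes of a list of such genes were measured. In Hep3B, 11 of them rose and 1 fell (25.5%), beside 16.4% of all genes. Single markers of several cell types also passed in Hep3B, where 16.4% of all genes did. Of the 8 hepatocyte markers 1 rose (FGB, 0.39), and of the 5 cholangiocyte and epithelial markers 1 fell (KRT7, -1.08). Of the 6 mesenchymal markers 1 rose (SPARC, 0.83), and of the 4 leukocyte markers 1 rose (CD14, 0.49). Of the 5 endothelial markers 1 fell (PECAM1, -0.25). The median of the mesenchymal markers was 10.69 to 10.72 with ATAD2 siRNA and 10.30 to 10.39 with control siRNA. COL1A1, COL1A2, VIM, ZEB1 and AXL did not rise (-0.06, -0.04, -0.01, -0.03 and -0.10), so only SPARC raised this median. The part of the markers of these cell types in the related genes' changes was not tested. Of the 11 cofactor genes, 6 rose (54.5%), while 8.68% of all genes rose. GCLM, GSR and SLC7A11 serve glutathione: the modifier subunit of glutamate-cysteine ligase (GCLM, 0.38 ± 0.07, adjusted p = 0.000718), the glutathione reductase GSR (0.30 ± 0.07, adjusted p = 0.004) and the cystine importer SLC7A11 (0.36 ± 0.07, adjusted p = 0.00114). The others were the PAPS synthase PAPSS2 (0.27 ± 0.08), the PAPS transporter SLC35B3 (0.14 ± 0.05) and the UDP-glucuronic acid transporter SLC35D1 (0.24 ± 0.06).

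Among the 20 other conjugating enzymes, 3 rose in Hep3B and 1 fell (20%), beside 16.4% of all genes. NNMT, which methylates nicotinamide, averaged 6.09 ± 0.23 with ATAD2 siRNA and 5.36 ± 0.03 with control siRNA (SD, n = 3 each), a change of 0.73 ± 0.10 (adjusted p = 6.5e-05). The histamine methyltransferase HNMT rose by 0.42 ± 0.07 (adjusted p = 0.000692) and TPST2, which sulfates tyrosines of secreted proteins, by 0.50 ± 0.09 (adjusted p = 0.000704). UGT3A1, a glycosyltransferase outside the families above, was 0.36 lower (-0.36 ± 0.08, adjusted p = 0.00378). Of the 9 regulators, 2 rose (22.2%), beside 16.4% of all genes called. They were PPARA, a nuclear receptor of fatty acid metabolism (0.55 ± 0.05, adjusted p = 1.18e-06, limma), and AHR, the dioxin receptor that binds the xenobiotic response element (0.41 ± 0.07, adjusted p = 0.000528). None of the 7 deconjugation and processing genes passed in Hep3B by limma. Of these, 2, GUSB and GGT5, had an unadjusted p under 0.05, beside 27.4% of all genes.

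Of these 12 calls in Hep3B, 9 held when any 1 array was left out. The call of SLC35D1 ended without Hep3B control replicate 2 (adjusted p = 0.089). That of PAPSS2 ended without any one of the Hep3B control arrays or without Hep3B ATAD2 siRNA replicate 2 (adjusted p 0.0554 to 0.129). That of SLC35B3 ended without any of 16 arrays (adjusted p 0.0516 to 0.138) and was kept without SNU449 control replicate 1 or PLC ATAD2 siRNA replicate 2.

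In SNU449, 1 of the 47 genes passed (2.13%), beside 0.258% of all genes. It was PAPSS2, with 7.33 ± 0.04 with ATAD2 siRNA and 6.86 ± 0.06 with control siRNA (0.47 ± 0.08, adjusted p = 0.0218, limma). The call ended without SNU449 control replicate 2 or 3 or any one of the SNU449 ATAD2 siRNA arrays (adjusted p 0.0684 to 0.11). In PLC, 3 of the 47 genes passed (6.38%), beside 4.57% of all genes. NNMT rose by 0.42 ± 0.10 (adjusted p = 0.028, limma). UGP2, which makes UDP-glucose, and the arylsulfatase ARSA were lower (-0.21 ± 0.06, adjusted p = 0.0471, and -0.30 ± 0.07, adjusted p = 0.0308). These 3 calls were lost without PLC ATAD2 siRNA replicates 1 and 3 (adjusted p 0.471 for NNMT, 0.774 for UGP2 and 0.229 for ARSA). On replicate 2 alone, the change was 0.23 for NNMT, -0.07 for UGP2 and -0.25 for ARSA, so that ARSA kept most of its size and UGP2 little of it. Leaving out 1 array ended the call of NNMT for PLC control replicate 1 or 2 or PLC ATAD2 siRNA replicate 1 or 3 (adjusted p 0.0612 to 0.0995), that of ARSA for any PLC control array or PLC ATAD2 siRNA replicate 1 (0.0609 to 0.111), and that of UGP2 for all arrays but Hep3B and PLC ATAD2 siRNA replicate 2 (0.0544 to 0.173). The F test between lines passed for 6 of the 47 genes (12.8%), beside 9.18% of all genes: NNMT, HNMT, TPST2, AHR, PPARA and GGT5, a gamma-glutamyltransferase. For NNMT that call (adjusted p = 0.0264) ended on leaving out any of 8 of the Hep3B and SNU449 arrays: Hep3B control replicate 2 or 3, Hep3B ATAD2 siRNA replicate 1 or 2, SNU449 control replicate 1 or 3, or SNU449 ATAD2 siRNA replicate 2 or 3 (0.0544 to 0.063). For PPARA, the change in Hep3B exceeded that in SNU449 and in PLC (differences of -0.43 ± 0.07, adjusted p = 0.00152, for SNU449 minus Hep3B and -0.52 ± 0.07, adjusted p = 0.000341, for PLC minus Hep3B).

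**Figure D5:**
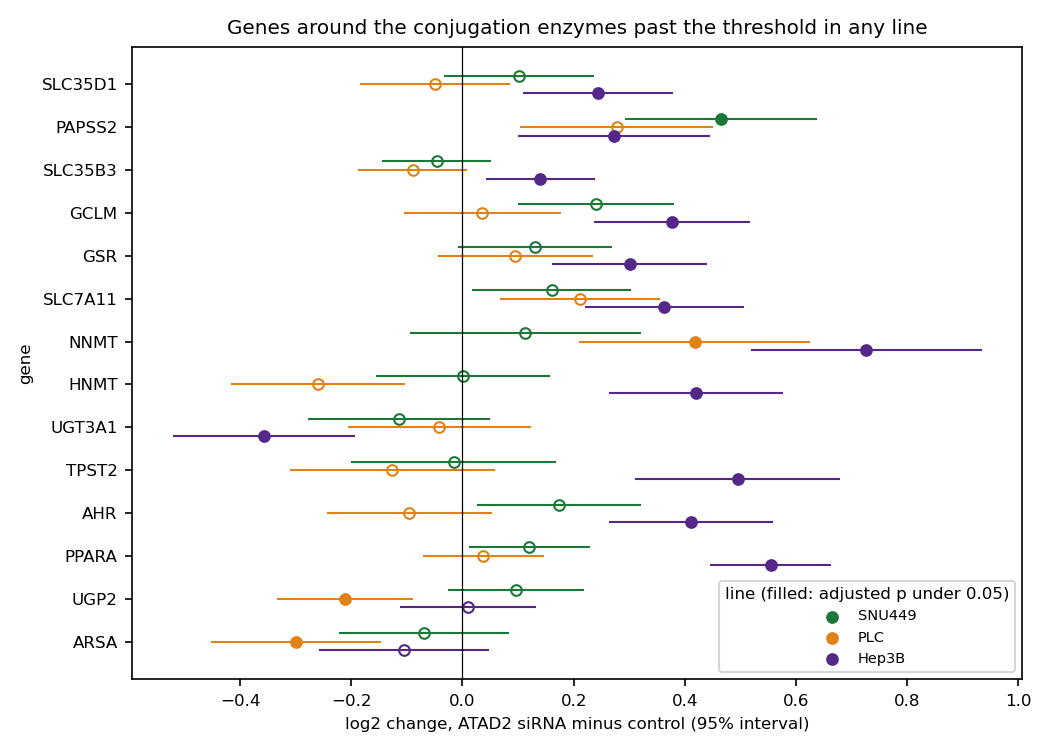
Log2 change, ATAD2 siRNA minus control, with 95% interval, of the cofactor, transport, other conjugating, processing and regulator genes past the threshold in at least 1 line; colours are the lines, and filled points have an adjusted p under 0.05. In Hep3B, 11 filled points lie right of 0 and UGT3A1 left of it.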

How the data were processed

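RNA from 3 cell lines was measured on arrays of 54675 probe sets. The authors deposited 1 table of log2 values, 1 column per array, as the range of 1.33 to 13.97 shows; which background correction and normalization made it is not given in the sources used here. The submitters' processing notes name limma with no version. Sorted deposited values differed by at most 0.155 within a line but by as much as 1.51 across lines, so all 18 arrays were quantile normalized together before use. The platform annotation named 1 gene for 41097 probe sets, several for 1801 and none for 11777; symbols were updated through RefSeq for 41043. The probe set of highest mean stood for each of 19775 genes. The files hold no detection calls, so a dim signal is not shown to be absent, and the number of arrays limits the precision.

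The 6 group means were fitted over all genes and arrays with limma 3.58.1 in R 4.3.3, whose moderated tests had 12 degrees of freedom from the arrays and 4.01 from the prior. Benjamini-Hochberg adjustment ran over all genes within a comparison, with a threshold of 0.05 and, between control arrays, a difference of at least 1 log2 unit. Intervals are at the 95% level. An exact permutation test of 3 against 3 arrays cannot go below 0.1 and was not used. The fit was tested on simulated data. By rule, any member could be named, with ATAD2, the label checks ALB, COL1A2 and RB1, and related genes past the threshold in a line; values of every array were for members past the threshold and for up to 10 members with the widest differences between lines. GGT5 was named after its values were seen. Members and gene lists were chosen with earlier results of these data known. GSTT2, a pseudogene in RefSeq, and 12 probe sets naming several member genes were left out. Alternatives covered scaling, dim genes, probe set choice, model, threshold, the replicate block, RNA quality and leaving out arrays; the 5′ minus 3′ covariate, the fit without PLC ATAD2 siRNA arrays 1 and 3 and the test of every probe set were added after seeing the data. Same-numbered arrays of a line did not deviate together (correlations of -0.125 to 0.0928).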

Additional observations from a re-analysis of the deposited data

Results flagged for a closer look

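The change of MGST1 with ATAD2 siRNA differed between the lines by the limma F test (adjusted p = 0.0447), with 0.02 in SNU449, -0.24 in PLC and -0.04 in Hep3B. No pairwise difference in the change of MGST1 passed by limma. The adjusted p was 0.106 for SNU449 minus PLC, 0.0775 for PLC minus Hep3B and 0.801 for SNU449 minus Hep3B.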

How the results depend on the processing

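Where no share of all genes stands beside a count in this section, a shift in calls over all genes cannot be told apart from one in the listed genes. The count of members changed in Hep3B was 2, beside 16.4% of all genes. It was 1 with quantile normalization within each line, with each line fitted by itself, and at a threshold of 0.01. It was 4 with the 5′ minus 3′ signal as a covariate, which called 18.2% of all genes. Leaving out 1 array gave 1 to 4. The count in PLC was 3. It was 5 with quantile normalization within lines or with centred arrays, 1 with the mean of a gene's probe sets, with the next brightest probe set or without PLC ATAD2 siRNA arrays 1 and 3, and 0 with each line fitted by itself, at 0.01 or with the covariate, fits that called 0.0759%, 0.733% and 1.93% of all genes in PLC, against 4.57%; leaving out 1 array gave 1 to 5. The count in SNU449 was 0 under every alternative run. The count of members whose change differed between lines was 1; it was 2 with the deposited values, 3 with centred arrays, and 0 with quantile normalization within lines, at 0.01 or with the covariate, and 0 to 2 without 1 array. GSTZ1 in Hep3B kept its call in 30 of 31 alternatives. These alternatives are not independent of each other. GSTZ1 and MGST2 have 1 probe set each, so the choice of probe set could not change their values. Leaving out an array of another line left the log2 change in a line as it was and altered only its test. The calls of MGST2 in Hep3B and GSTZ1 in PLC were lost in 21 of 31 each, that of MGST1 in PLC in 6 of 31 and that of SULT1E1 in PLC in 13 of 29; all 5 kept their direction in these.

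With the replicate number as a block, the members called were 1 in Hep3B, 0 in PLC and 0 for the difference between lines, and the related genes called were 0 in SNU449 and 1 in PLC; the numbers did not pair the arrays.

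Of the related genes, 12 were called in Hep3B and 8 to 15 under the alternatives. The 3 called in PLC became 6 with the deposited values, 8 with quantile normalization within lines, 7 with centred arrays, 7 without the dimmest 30% and 6 without the dimmest 50% of genes, 8 with an intensity trend and robust prior, 1 with mean probe sets, and 0 with the next probe set, each line alone, the threshold of 0.01, the covariate or arrays 1 and 3 left out; leaving out 1 array gave 0 to 11. The 1 called in SNU449 became 0 with quantile normalization within lines, mean or next probe sets or 0.01, and 2 with centred arrays or without the dimmest 30%; leaving out 1 array gave 0 to 1.

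Between control arrays of PLC and Hep3B, 9 members were called, and 18 with the deposited values or quantile normalization within lines, 15 with centred arrays, 5 without the dimmest 50% of genes and 8 to 9 without 1 array. All genes called were 18.4%, and 43%, 42.2% and 41.6% under these 3 scalings. Without the dimmest 50%, where 16 members remain, the 13 for SNU449 against Hep3B became 6 and the 13 for SNU449 against PLC became 7. Differences of SNU449 minus PLC that turned positive with the deposited values were 1.22 for GSTM4, 1.03 for SULT1B1 and 1.28 for SULT1E1, and within lines 1.20, 1.02 and 1.24. With centred arrays, PLC minus Hep3B turned to 1.31 for GSTO1, 1.24 for MGST1 and 1.56 for UGT2B17, and SNU449 minus PLC to -1.42 for GSTO1, -1.49 for MGST2, -1.41 for MGST3 and -1.73 for UGT2B17. With the next probe set, SNU449 minus Hep3B of GSTO2 was -0.13, and PLC minus Hep3B was 1.02 for GSTM4 and 1.15 for SULT2A1. Why these moved was not tested. Dim signals limit UGT2B17, UGT1A1 and UGT1A6 most.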
